A study of Mus musculus with 4 samples.

Results

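The 9 Kruppel-like factor genes Klf2, Klf3, Klf4, Klf6, Klf7, Klf9, Klf10, Klf12 and Klf13 were compared between splenic regulatory T cells with and without Nrp1 (neuropilin-1, a surface receptor that binds secreted semaphorins and growth factors of the VEGF family). They were taken as every probe set annotated to 1 of these genes alone, which gave 35 probe sets of 45101 on the array, and 9 genes of 18194 with such a probe set. CD4+ Foxp3+ Nrp1-positive cells (2 arrays, mice of 4 to 6 weeks) were set against CD4+ Foxp3+ Nrp1-negative cells (2 arrays, mice of 4 to 8 weeks for replicate number 1 and of 4 to 6 weeks for replicate number 2). All cells came from spleens of the Balb/c Foxp3 GFP strain, which marks Foxp3 with green fluorescent protein so that regulatory T cells can be sorted live. The labels do not say how many mice lay behind an array or whether mice were pooled, so a p-value measures only the spread between these arrays, which may be technical.

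Kruppel-like factors are zinc finger transcription factors that bind CACCC boxes and related GC-rich sites in promoters. By their partners they fall into mainly activating factors (here Klf2, Klf4, Klf6 and Klf7), repressors that recruit the C-terminal binding proteins (Klf3 and Klf12), and factors that recruit the Sin3 corepressor (Klf9, Klf10 and Klf13). In T cells Klf2 is known for keeping cells quiescent and for driving the receptors that let them leave and re-enter lymphoid organs, and Klf10 for its induction by TGF-beta and its role in regulatory T cells.

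Intensities below are the authors' probe set signals after all 4 arrays were brought to one trimmed mean. Differences run as Nrp1-positive minus Nrp1-negative, on the scale of log2(intensity + 18.3), which understates the change of dim probe sets. The deposited trimmed mean was 500.003 on both arrays numbered 1 and 150.001 on both arrays numbered 2, so the number marks a scaling batch with 1 array of each group, and each difference is given within each number. The brightest Nrp1 probe set read 9344 and 7745 on Nrp1-positive arrays 1 and 2, and 339 and 1223 on Nrp1-negative arrays 1 and 2, so the sorted marker followed the titles on every array. On Nrp1-negative array 1 the title conflicts with the labels for source and cell type, which read Nrp+. Summed markers of regulatory T cells, 12 genes, stood at 99722 and 93468 on Nrp1-positive arrays, against 81943 and 77570 on Nrp1-negative arrays. Within this sum Ikzf2 read 19031 and 16189 on Nrp1-positive arrays, against 9414 and 10297 on Nrp1-negative arrays. Of 18 tested probe sets on the list, 13 were higher in Nrp1-positive cells in both numbers (28.1% of all tested probe sets). Cd3d and Cd3e were the 2 lower in both (23.7% of all), and 3 were opposite. Summed B cell markers, 9 genes, stood at 584 and 722 on Nrp1-positive arrays, against 609 and 696 on Nrp1-negative arrays. Of these 9, Cd79b and Cd22 were the 2 above the filter on low values. The part of both marker sets in the Kruppel-like factor values was not tested. Of the 12 regulatory T cell genes, 11 lay above the filter, while the Foxp3 probe set read 2.16 and 19.9 on Nrp1-positive and 4.45 and 36.4 on Nrp1-negative arrays, below it. In bulk RNA, fewer cells of a type and less RNA per cell cannot be told apart.

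No Kruppel-like factor passed the test across the array. Limma with the replicate number as a block called 0 of the 27 tested member probe sets at an adjusted p below 0.05, against 0.209% of all 22496 tested probe sets (0.129% with Nrp1-positive higher). At an unadjusted p below 0.05 it took 6 of the 27 (2 of Klf12, 3 of Klf3 and 1 of Klf9), all higher in Nrp1-positive cells, against 4.20% of all tested probe sets in that direction and 6.87% in either. Limma without the block called 0 of the 27 and 0.00% of all, with 1 member probe set and 233 of all at an unadjusted p below 0.05. The filter kept 27 of the 35 member probe sets, and since it looks at the mean of all arrays it can favour probe sets that are high in 1 group, so counts over the 27 are a description only. Of the 27, 14 were higher in Nrp1-positive cells in both replicate numbers (28.1% of all tested probe sets) and 2 lower in both (23.7%). The groups did not overlap with Nrp1-positive higher in 7 of them (11.5% of all tested) and with Nrp1-positive lower in 0 (8.50% of all tested). The dimmest member probe set kept had a mean intensity of 78.8 and the brightest left out 63.8, both of Klf9, with the filter at 72.7.

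**Figure D1:**
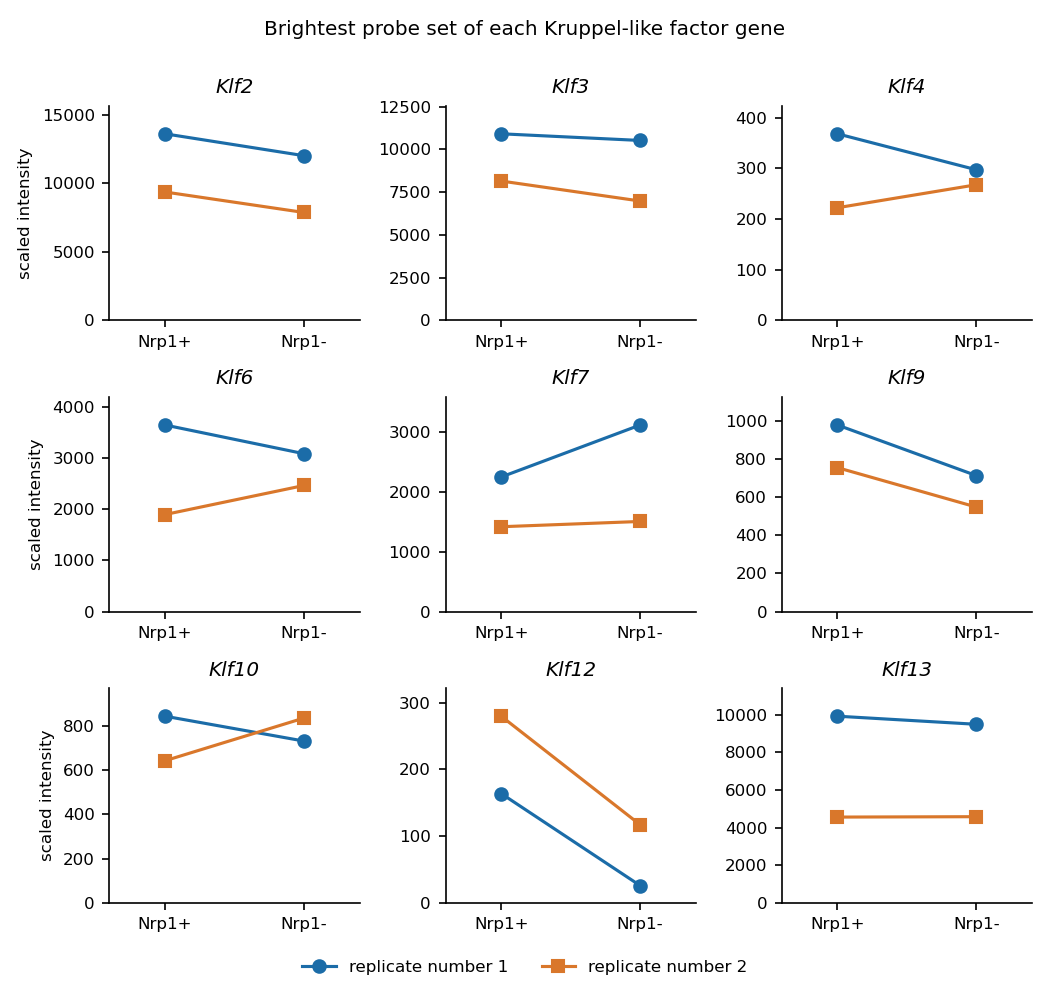
Scaled intensity (vertical axis, arbitrary signal units from 0, own scale in each panel) of the brightest probe set of each of the 9 genes on Nrp1-positive (left) and Nrp1-negative (right) arrays, with a line joining the 2 arrays of a replicate number. Klf2, Klf3, Klf9 and Klf12 run down from left to right in both numbers, and Klf4, Klf6, Klf10 and Klf13 run down in number 1 and up in number 2.

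Without any filter, 17 of the 35 member probe sets were higher in Nrp1-positive cells in both replicate numbers, against 25.9% of all 45037 probe sets that are not controls, and 4 were lower in both, against 24.9%. The 2 groups were fully apart in 8 of the 35 with Nrp1-positive higher, against 13.1% of all, and in 1 with Nrp1-positive lower, against 12.2%. Of those 8 probe sets, 5 belong to Klf9, 2 to Klf12 and 1 to Klf3, so probe sets of the same gene, which read the same transcripts, make up most of them. The median difference was 0.14 over the 35 and 0.0035 over all.

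Klf12, a repressor first described as binding the promoter of the AP-2 alpha gene, had the largest difference of the 9 genes. Its brightest probe set read 164 and 280 on Nrp1-positive arrays 1 and 2, against 25.8 and 117 on Nrp1-negative arrays 1 and 2. Both Nrp1-positive arrays were above both Nrp1-negative ones, and Nrp1-negative array 1 was the lowest by far. The mean difference was 1.59, or 3.01-fold (standard error 0.35, 95% interval 0.82 to 2.37), at 2.04 in number 1 and 1.14 in number 2. Limma with the block gave an adjusted p = 0.155, and without the block an adjusted p = 1.00. The call depended on the scaling. Klf12 passed in limma with the block when the arrays were brought to one median (1.56, adjusted p = 0.00223, where 1.43% of all tested probe sets passed), but not after quantile normalisation (adjusted p = 0.0657, where 0.613% passed). It also passed after quantile normalisation with 1 probe set per gene (1.57, adjusted p = 0.0251, where 1.89% of all tested genes passed), a setting chosen after seeing the data. With no filter on low values the adjusted p was 0.590. Both tested Klf12 probe sets reached the filter through the Nrp1-positive arrays, since the mean of the Nrp1-negative arrays alone lay under 72.7 for each, so their adjusted p-values are a description and no support for a difference. With one median the variance prior had infinite degrees of freedom, so that p-value used no spread of Klf12's own.

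The second Klf12 probe set gave a similar mean and more spread between the numbers. It read 101 and 128 on Nrp1-positive arrays, against 2.96 and 91.6 on Nrp1-negative arrays. Its difference was 2.48 in number 1 and 0.42 in number 2, with a mean of 1.45 (95% interval 0.33 to 2.57, adjusted p = 0.520 in the blocked limma fit). The lowest reading lay on Nrp1-negative array 1, the array whose labels conflict. Of the other 3 Klf12 probe sets, all below the filter, 1 differed by 1.08 and 0.08 in numbers 1 and 2, another by 0.61 and −0.56, and the dimmest, under 4.1 on every array, by −0.11 and −0.14. Without Nrp1-negative array 1 the difference of the brightest probe set was 0.78, and without Nrp1-negative array 2 it was 2.40. With Nrp1-negative array 1 counted as Nrp1-positive and no block it was −0.02.

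Windows at the annotated starts of Klf12 and Klf9, the genes with the largest mean difference at their brightest probe set, are shown because the family binds CACCC boxes. They are RefSeq windows of build GRCm38.p6, from 250 bases before to 50 after the annotated start and written in the direction of the gene. Capitals mark CACCC or its reverse complement GGGTG. The Klf12 window is chr14:100149747-100150046 on the minus strand and the Klf9 window chr19:23140976-23141275 on the plus strand.
Klf12: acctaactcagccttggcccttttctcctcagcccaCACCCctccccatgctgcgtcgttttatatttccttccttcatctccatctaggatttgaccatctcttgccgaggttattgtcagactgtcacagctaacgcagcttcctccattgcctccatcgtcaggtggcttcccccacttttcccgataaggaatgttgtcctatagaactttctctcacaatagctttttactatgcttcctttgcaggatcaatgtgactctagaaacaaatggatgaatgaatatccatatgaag
Klf9: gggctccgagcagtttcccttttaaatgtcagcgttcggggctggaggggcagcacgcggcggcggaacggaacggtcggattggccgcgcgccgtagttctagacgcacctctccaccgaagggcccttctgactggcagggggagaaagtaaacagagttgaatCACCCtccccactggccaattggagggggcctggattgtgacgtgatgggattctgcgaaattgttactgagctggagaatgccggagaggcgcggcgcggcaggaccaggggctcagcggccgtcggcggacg

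Both windows held 1 match to CACCC on either strand and 0 to the GC box GGGCGG or its reverse complement CCGCCC. RefSeq windows were at hand for 8 of the 9 genes. Of these, 6 held CACCC, Klf12 among them (against 57.5% of 32851 windows of the same length), and 6 held GGGCGG (against 35.7%). Matches to the 2 motifs overlapped by 1 base in Klf3 and in Klf13 and not in the other 6. A match describes the letters of the window and not a bound site. At its annotated start the Klf12 window reads cctttgcag, letters with which an intron often ends. Whether that window is a promoter was not tested.

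Klf3, a repressor that recruits C-terminal binding proteins and is known from B cell and erythroid development, was slightly higher in Nrp1-positive cells at its bright probe sets. The brightest read 10911 and 8150 on Nrp1-positive arrays (numbers 1 and 2), against 10522 and 6980.2 on Nrp1-negative arrays. The groups overlapped, and the number moved the level more than Nrp1 did. The mean difference was 0.14 (95% interval −0.12 to 0.40), at 0.05 and 0.22 in numbers 1 and 2. A dimmer one, at 1481 and 1717 on Nrp1-positive against 1100.2 and 1346 on Nrp1-negative arrays, was the Klf3 probe set whose groups did not overlap. It differed by 0.42 and 0.35 in numbers 1 and 2 (95% interval of the mean 0.10 to 0.67, adjusted p = 0.478 in limma with the block). Over the 6 tested Klf3 probe sets the mean differences ran from 0.14 to 0.53, and 5 of the 6 were above 0 in both numbers. The seventh, below the filter, read 11.1 and 4.86 on Nrp1-positive and 107 and 5.95 on Nrp1-negative arrays.

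Of the genes whose products recruit Sin3, Klf9, a factor induced by glucocorticoids and thyroid hormone, had the most even difference between the numbers at its brightest probe set. Its brightest probe set read 977 and 754 on Nrp1-positive arrays, against 712 and 547 on Nrp1-negative arrays. Both Nrp1-positive arrays were above both Nrp1-negative ones. The difference was 0.45 in number 1 and 0.45 in number 2, or 1.36-fold on the mean (standard error 0.15, 95% interval 0.10 to 0.79, adjusted p = 0.507 in limma with the block). Without Nrp1-negative array 1 it was 0.63, and without Nrp1-negative array 2 it was 0.26.

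Most other Klf9 probe sets ran the same way. The second read 569 and 544 on Nrp1-positive arrays, against 416 and 485 on Nrp1-negative arrays. Another read 552 and 553 on Nrp1-positive arrays, against 452 and 433 on Nrp1-negative arrays. All 4 tested Klf9 probe sets had groups that did not overlap, with mean differences of 0.30 to 0.54 and adjusted p-values between 0.507 and 0.870 after fitting with the block. The dimmest of the 4, at 0.54, read 117 and 77.9 on Nrp1-positive arrays, against 64.3 and 55.9 on Nrp1-negative arrays. It reached the filter of 72.7 through the Nrp1-positive arrays, so its values are a description and no support for a difference. Of the 3 Klf9 probe sets below the filter, 2 were also higher in both numbers (means 0.24 and 0.59), and the dimmest, at 3.22 and 38.6 on Nrp1-positive and 28.5 and 35.3 on Nrp1-negative arrays, differed by −1.12 and 0.09.

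**Figure D2:**
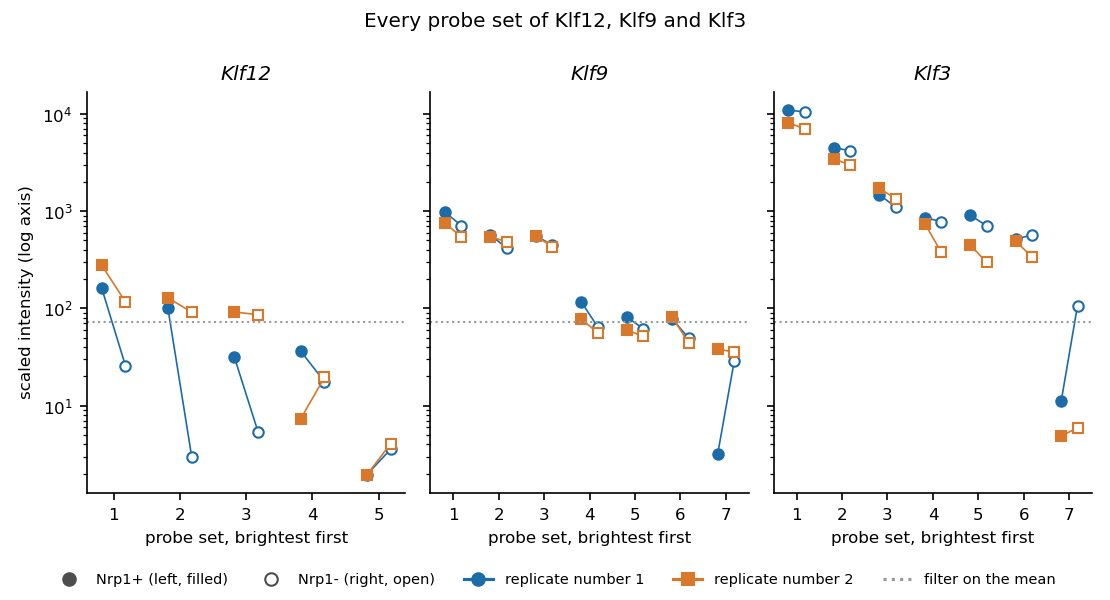
Scaled intensity (log axis) of every probe set of Klf12, Klf9 and Klf3, brightest first, with Nrp1-positive arrays as filled and Nrp1-negative arrays as open symbols, joined within a replicate number, and the filter on the mean at 72.7 as a dotted line. The 3 brightest Klf12 probe sets drop most on Nrp1-negative array 1 (25.8, 2.96 and 5.37), and 6 of the 7 Klf9 probe sets are higher on Nrp1-positive arrays in both numbers.

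Klf10, the TGF-beta-inducible early gene, read 844 and 643 on Nrp1-positive arrays, against 732 and 836 on Nrp1-negative arrays. Its single probe set differed by 0.20 in number 1 and −0.37 in number 2 (mean −0.08, 95% interval −0.48 to 0.31). Klf13, which activates the chemokine gene Ccl5 in T cells, read 9924 and 4559 on Nrp1-positive arrays, against 9493 and 4580.0 on Nrp1-negative arrays. Within a number its 2 groups were nearly level, at 0.06 and −0.01 (mean 0.03, 95% interval −0.22 to 0.28). Its second probe set differed by −0.23 and 0.06, and the third, below the filter, by −0.92 and 0.55.

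Of the activating factors, Klf2, the quiescence and trafficking factor, had a single probe set, which was bright on every array. It read 13628 and 9378 on Nrp1-positive arrays, against 12029 and 7882 on Nrp1-negative arrays. Within each number the Nrp1-positive array was the higher one, but the groups overlapped. The difference was 0.18 in number 1 and 0.25 in number 2, a mean of 0.21 or 1.16-fold (95% interval −0.04 to 0.47, adjusted p = 0.800 in limma with the block). Without Nrp1-negative array 2 it was −0.09 and without Nrp1-negative array 1 it was 0.52, fits that mix the number with the group.

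Klf6, an early response factor, and Klf4, which is high in monocytes and restrains division in T cells, took opposite signs in the 2 numbers at their brightest probe sets. Klf6 read 3642 and 1894 on Nrp1-positive arrays, against 3082 and 2462 on Nrp1-negative arrays. It differed by 0.24 in number 1 and −0.37 in number 2 (mean −0.07, 95% interval −0.40 to 0.26). Of its 5 tested probe sets, 2 were higher in Nrp1-positive cells in both numbers, 1 lower in both and 2 opposite, with means from −0.36 to 0.34. The widest gap between the numbers within Klf6 was at a probe set with 1637 and 333 on Nrp1-positive arrays, against 1129 and 298 on Nrp1-negative arrays.

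Klf4 read 368 and 222 on Nrp1-positive arrays, against 297 and 268 on Nrp1-negative arrays. Its difference was 0.29 in number 1 and −0.25 in number 2 (mean 0.02, 95% interval −0.52 to 0.56), and its second probe set differed by 0.10 and −0.51. Most markers of myeloid cells differed with the same signs within each number, at 10 of 14 tested probe sets, with 2 each of Csf1r and Cybb. Of all 22496 tested probe sets, 10849 took opposite signs in the 2 numbers, in either order. Of the other 4 myeloid probe sets, Itgax and 1 of Cybb were lower in Nrp1-positive cells in both numbers, and S100a8 and 1 of Csf1r were higher in both. The summed intensity of the 12 of 15 myeloid and conventional dendritic cell markers on the array was 16623 and 51807 on Nrp1-positive arrays, against 13824 and 55697 on Nrp1-negative arrays. Their median difference was 0.35 in number 1 and −0.22 in number 2. Most of the summed intensity came from S100a8 and S100a9. S100a8 read 7081 and 21055 on Nrp1-positive and 6026 and 21044 on Nrp1-negative arrays. S100a9 read 6226 and 18301 on Nrp1-positive and 5244 and 20589 on Nrp1-negative arrays. Lyz2, a lysozyme gene of myeloid cells, read 1602 and 8504 on Nrp1-positive and 1087 and 8992 on Nrp1-negative arrays. The dendritic cell genes Flt3 and Zbtb46 lay below the filter. Klf4 was lower on number 2 in both groups, as 7 of the 9 genes were at their brightest probe set (38.7% of all tested probe sets). The summed myeloid markers were higher on number 2 in both groups. The part of these markers in the Klf4 and Klf6 values was not tested.

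Klf7, known mainly from neurons and adipocytes, was the gene whose brightest probe set was lower in Nrp1-positive cells in both numbers. Its brightest probe set read 2252 and 1420.0 on Nrp1-positive arrays, against 3122 and 1508 on Nrp1-negative arrays. The groups overlapped, and the arrays of number 1 set most of the difference, at −0.47 against −0.09 in number 2 (mean −0.28, 95% interval −0.57 to 0.02, adjusted p = 0.757 in the blocked limma fit). The other 3 Klf7 probe sets were lower in number 1 and higher in number 2, with means from −0.08 to 0.06.

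**Figure D3:**
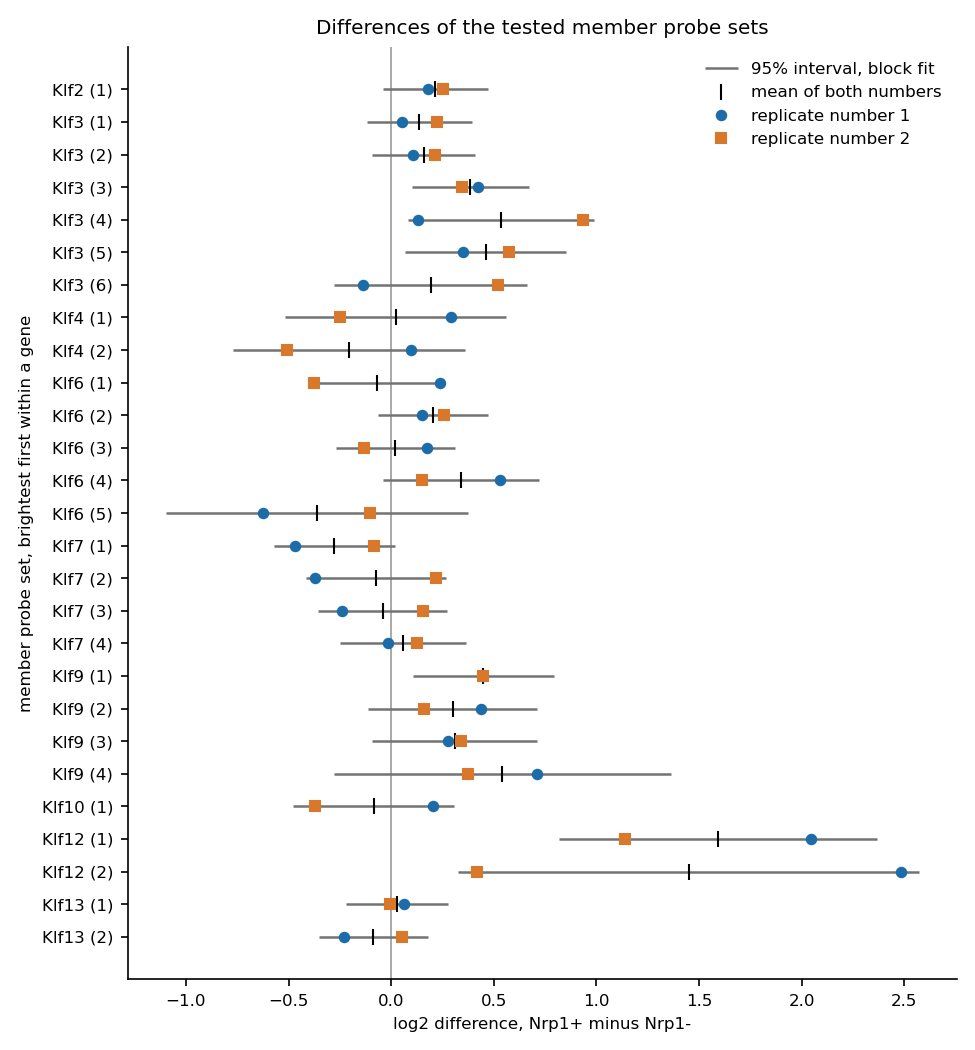
Log2 difference, Nrp1-positive minus Nrp1-negative (horizontal axis), of the 27 tested member probe sets, with circles for replicate number 1, squares for number 2, a tick for their mean and a bar for its 95% interval in limma with the block. The Klf12 probe sets stand at means of 1.59 and 1.45, the 4 Klf9 ones between 0.30 and 0.54, and the other members between −0.36 and 0.53.

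The replicate number shifted most members more than Nrp1 did. At the brightest probe set, 7 of the 9 genes were lower on the arrays numbered 2 than on those numbered 1 in both groups, against 38.7% of all tested probe sets. Klf13 was lower by a mean log2 difference of −1.08 (number 2 minus number 1), Klf7 by −0.85, Klf6 by −0.63, Klf2 by −0.57 and Klf3 by −0.51. Klf12 was the gene higher on number 2 in both groups, at 1.16, and Klf10 was lower in Nrp1-positive and higher in Nrp1-negative cells. Number 2 arrays were also the ones with the high myeloid sums, most of which came from S100a8 and S100a9. The part of myeloid markers in these shifts was not tested. Scan, extraction and sort are not given per array in the sources used here.

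Genes whose 2 within-number differences lay nearest to those of the brightest Klf12 probe set were Hdac9, a class II histone deacetylase gene, Cavin1, a coat protein gene of caveolae, and Hap1, the gene of a protein that binds huntingtin. Nearness was the distance in the plane of the 2 differences, over 4 arrays. Hdac9 differed by 1.94 and 1.11 in numbers 1 and 2 and read 133 and 168 on Nrp1-positive arrays, against 21.2 and 68.0 on Nrp1-negative arrays. Cavin1 differed by 2.10 and 1.26 and Hap1 by 1.98 and 1.00. None of them passed (adjusted p = 0.236, 0.245 and 0.336 in limma with the block), and Nrp1-negative array 1 was the lowest array for all 3 of them. They were chosen for differences like those of Klf12, so a low Nrp1-negative array 1 follows in part from the choice. All 3 read under the filter of 72.7 on both Nrp1-negative arrays and reached it through the Nrp1-positive ones, so their p-values are a description.

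None of the related gene lists held a called probe set when single probe sets were tested after scaling to one trimmed mean. Limma with the block called 0 of 145 tested probe sets on the 10 lists, with 12 at an unadjusted p below 0.05 (against 6.87% of all tested probe sets), and without the block it called 0 of them. The lists' tested probe sets had a median difference of −0.0027, against 0.013 over all tested probe sets and 0.16 over the 27 tested member ones. Of the other Kruppel-like factor genes, 3 of 7 on the array were tested. The erythroid factor gene Klf1 read 80.7 and 42.1 on Nrp1-positive arrays, against 52.8 and 236 on Nrp1-negative arrays, so its mean of −0.80 rested on Nrp1-negative array 2. Erythroid markers on the array were 4 genes with Klf1 among them. Their sum stood at 110.1 and 123 on Nrp1-positive arrays, against 151 and 397 on Nrp1-negative arrays. It holds the Klf1 reading, so it is no separate measure. Alas2, Epor and Hba-a1 lay below the filter. Alas2 read 12.5 and 22.4 on Nrp1-positive arrays, against 27.1 and 58.2 on Nrp1-negative arrays. In the same order, Epor read 12.2 and 52.5 against 29.8 and 66.4, and Hba-a1 4.71 and 5.69 against 41.5 and 35.9. The part of erythroid markers in the Klf1 value was not tested. Klf11 and Klf16, which like Klf9 recruit Sin3, differed by −0.06 and 0.04. The Sp factors bind the same GC-rich sites, and the median of their list over 7 tested probe sets was 0.16. At their brightest probe sets, Sp6 differed by 0.27, Sp4 by −0.19 and Sp1 by 0.16. That Sp4 probe set differed by 0.02 in number 1 and −0.40 in number 2. The other tested Sp4 probe set differed by 0.89 and 0.37 (mean 0.63).

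Around Klf2, the interleukin-7 receptor gene Il7r was higher and the homing receptor gene Ccr7 lower in Nrp1-positive cells in both numbers. Neither passed when single probe sets were tested after scaling to one trimmed mean. Of 12 tested genes that regulate Klf2 or its turnover (36 probe sets, median 0.02), Il7r, whose product binds interleukin-7, differed by 0.46 (95% interval 0.21 to 0.71, adjusted p = 0.233 in limma with the block). It read 8330.1 and 5560 on Nrp1-positive arrays, against 5729 and 4276 on Nrp1-negative arrays, higher within each number. Wwp1, a ubiquitin ligase that degrades Klf2, differed by 0.36 and Mapk7, the kinase upstream of Klf2 in endothelium, by −0.22. Of 8 tested migration genes known as targets of Klf2 or of Foxo1 (11 probe sets, median −0.09), the chemokine receptor gene Ccr7 differed by −0.50 (95% interval −0.75 to −0.25, adjusted p = 0.175 in limma with the block). Ccr7 read 4527 and 3802 on Nrp1-positive arrays, against 6106 and 5637 on Nrp1-negative arrays, and the groups did not overlap. Cd69, whose product holds cells in tissue by removing S1pr1 from their surface, differed by −0.25 and the gut homing gene Ccr9 by −0.21. The egress receptor gene S1pr1, the best known target of Klf2, read 4169 and 1460.1 on Nrp1-positive arrays, against 3423 and 1386 on Nrp1-negative arrays, a difference of 0.28 and 0.07 in numbers 1 and 2. In limma with the block, Il7r (adjusted p = 0.0406) and Ccr7 (0.0351) passed after quantile normalisation, where 0.613% of all tested probe sets passed. Ccr7 also passed with one median (0.0179, where 1.43% passed), with infinite degrees of freedom in the variance prior. Both passed in limma with the block when a gene's probe sets were averaged (adjusted p = 0.0330 for Il7r and 0.0106 for Ccr7), where 201 of 10198 genes passed. They also passed after quantile normalisation with 1 probe set per gene (0.0109 for Il7r and 0.00810 for Ccr7), where 1.89% of all tested genes passed. That setting was chosen after seeing the data.

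Partner and target lists of the other members had medians near 0. No probe set on them passed in limma with the block at one trimmed mean. The corepressor list (19 probe sets, median −0.02) held Ctbp2 at 0.43, Sap30 at −0.29 and Sin3a at 0.25, and the coactivator list (10 probe sets, median 0.03) Ep300 at −0.09, Kat2b at 0.07 and Crebbp at 0.04. The other tested Ctbp2 probe set had a mean of −0.23, at 0.30 in number 1 and −0.77 in number 2. Ctbp2 encodes a corepressor of Klf3 and Klf12, and Sin3a the scaffold that Klf9, Klf10 and Klf13 recruit. Ep300 and Crebbp encode the acetyltransferases that work with the activating members. Of the TGF-beta genes tied to Klf10 (17 probe sets, median 0.02), Tgfbr1 differed by 0.28, Smad2 by −0.09 and Smad7 by 0.07. Of the quiescence and cell cycle genes tied to Klf2 and Klf4 (21 probe sets, median 0.05), the cyclin-dependent kinase inhibitor genes Cdkn1c and Cdkn1b differed by 0.62 and 0.50 and the cyclin gene Ccnd1 by −0.37. Cdkn1b read 5416 and 6109 on Nrp1-positive arrays, against 4452 and 3682 on Nrp1-negative arrays (adjusted p = 0.258 in limma with the block). In the same limma fit with one median it was 0.0427, where 1.43% of all tested probe sets passed and the variance prior had infinite degrees of freedom. After quantile normalisation with 1 probe set per gene, chosen after seeing the data, limma with the block gave 0.0114, where 1.89% of all tested genes passed. For Cdkn1b both arrays from Nrp1-positive cells were above both from Nrp1-negative cells. Of the clock genes tied to Klf9 and Klf10 (17 probe sets, median −0.0066), Arntl differed by 0.39, Per2 by −0.36 and Cry1 by 0.34. Of the genes tied to Klf13 and Klf6 in leukocytes (6 probe sets, median 0.03), Ccl5 differed by −0.38, Bcl2l1 by 0.11 and Eng by 0.11, and Ccl5 was 0.03 in number 1 and −0.80 in number 2. Ccl5 is also known from CD8 T and NK cells, and 7 of the 8 markers of these cells on the array lay above the filter, with Cd8a below it. Their summed intensity was 2179 and 3018 on Nrp1-positive arrays, against 1737 and 3841 on Nrp1-negative arrays. Of 9 tested probe sets of these markers, 5 were lower in Nrp1-positive cells in both numbers (23.7% of all tested). Another 3 were higher in both (28.1% of all tested) and 1 was opposite. The granzyme gene Gzma differed by −0.02 in number 1 and −0.93 in number 2. Nkg7 differed by 1.48 and 0.04, and Cd8b1 by 0.19 and 0.24. The part of these markers in the Ccl5 value was not tested.

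**Figure D4:**
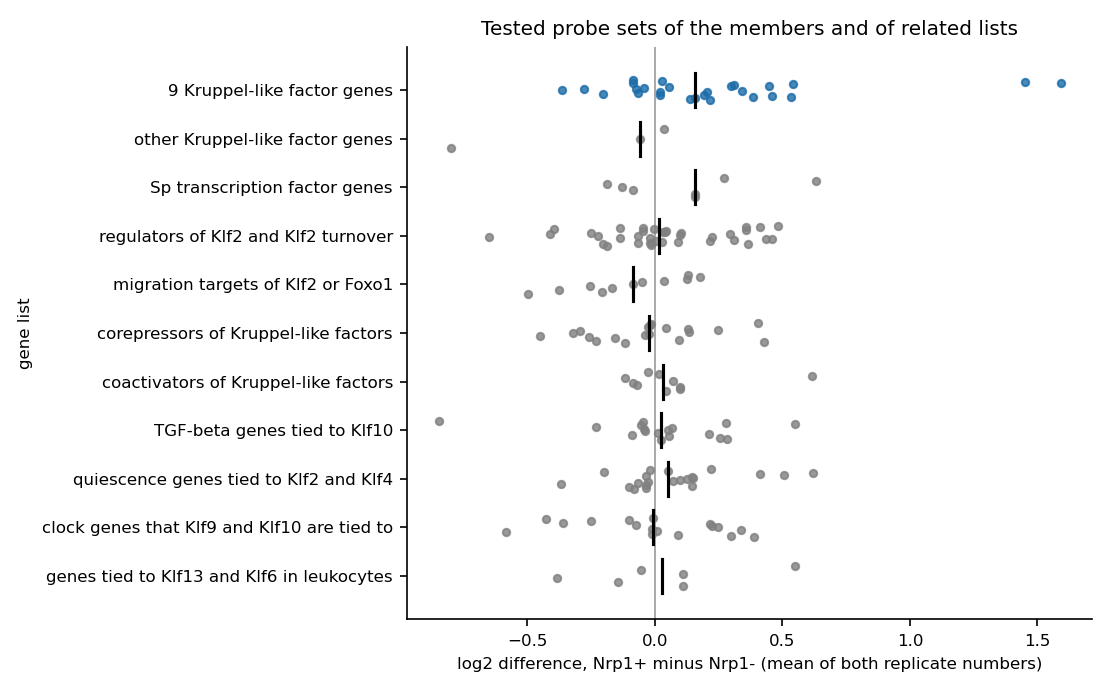
Log2 difference, Nrp1-positive minus Nrp1-negative, averaged over both replicate numbers (horizontal axis), of each tested probe set of the 9 genes (top row) and of the 10 related lists, with a bar at each median. The medians lie between −0.09 and 0.16, and the Klf12 probe sets are the 2 points at 1.45 and 1.59.

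**Figure D5:**
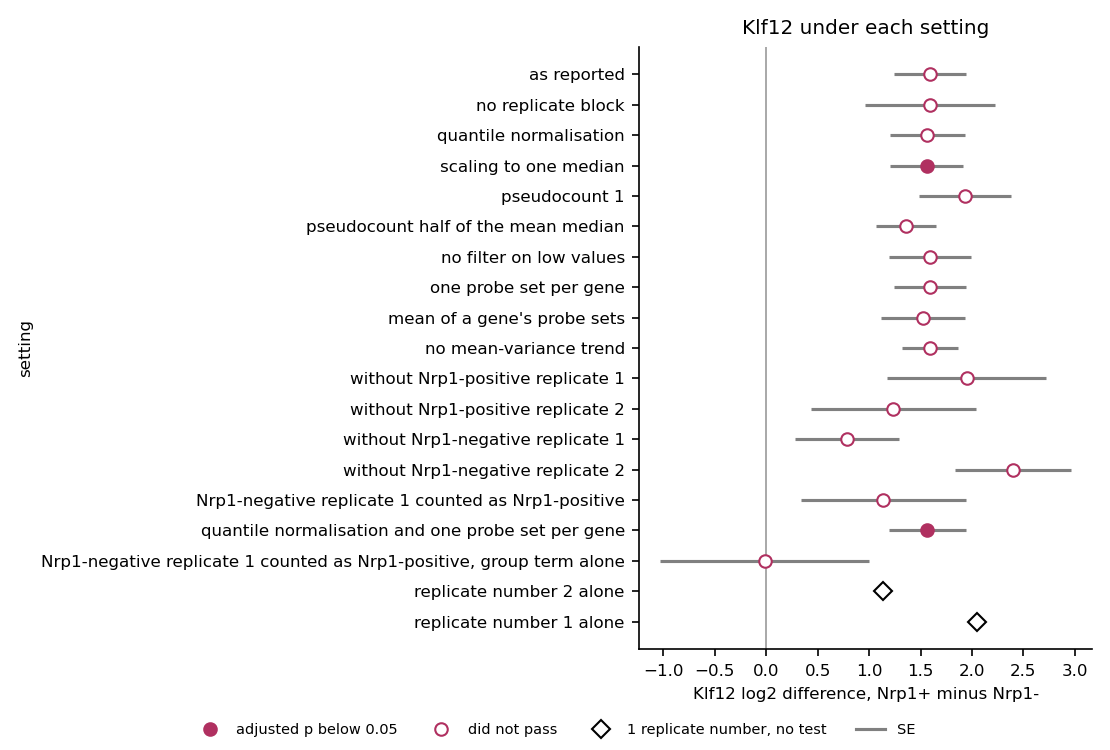
Klf12 log2 difference, Nrp1-positive minus Nrp1-negative (horizontal axis), under each setting, with the standard error as a bar; filled circles passed an adjusted p below 0.05, open circles did not, and diamonds are 1 replicate number with no test. The value stays above 0 except where Nrp1-negative array 1 is counted as Nrp1-positive without a block (−0.02), and 2 settings passed.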

How the data were processed

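Expression of sorted mouse splenocytes was measured on 1-colour Affymetrix arrays with biotin-labelled RNA, per the labels. The deposited values are probe set intensities on a linear scale, which the authors computed with MAS5, as per the submitters' processing notes. Its settings were not given in the sources used here, and no detection calls were used. Groups and replicate numbers came from the titles. The 4 arrays were scaled to the highest of their trimmed means (2% trimmed at each end) and taken to log2 after adding 18.3, which is 0.25 of the mean array median. Tests covered the 22496 probe sets whose mean intensity reached percentile 50 of the array. Of 45101 probe sets, 64 were controls, 34945 had 1 gene, 932 had several and 9160 had no name in the platform annotation used. Updating symbols through the RefSeq table (GRCm38.p6) changed 0 of them.

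Limma 3.58.1 in R 4.3.3 (eBayes with trend on, two-sided tests, Benjamini-Hochberg over all tested probe sets) was fitted with the replicate number as a block, since the groups were to be compared within each number, and without it as an alternative. Adjusted p-values come from the fit with the block unless stated. Its 1 residual degree of freedom joined 9.30 from the variance prior, so standard errors and intervals rest mostly on probe sets of similar level. Deviations from the group means of same-numbered arrays correlated at 0.69 over tested probe sets. The deposited scaling targets also differed by number, which marks a batch of scaling only. An exact permutation test of 2 against 2 arrays cannot go below p = 0.333. Precision is limited by having 2 arrays in each group.

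The members and the lists were chosen with earlier results of these data known. All 9 genes were named, with every probe set accounted for. Of each list, the 3 tested genes with the largest absolute difference at their brightest probe set were named, plus any that passed, and the 3 genes nearest to the member with the largest difference. S1pr1 and the single cell type markers given were named after their values were seen, as were the promoter windows shown. The limma steps were tested on simulated data. Figures were drawn with matplotlib 3.10.9 in Python 3.11.15.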

Additional observations from a re-analysis of the deposited data

How the results depend on the processing

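The array-wide count of 47 called probe sets was 0 with no replicate block, 0 with no mean-variance trend, 138 after quantile normalisation, 321 with one median, 24 with no filter, 26 with the filter at percentile 70 (where Klf12 was not tested), 201 when a gene's probe sets were averaged, and 193 after quantile normalisation with 1 probe set per gene, a setting chosen after seeing the data. It was 0 with Nrp1-negative array 1 counted as positive, with the block or, added after seeing the data, with the group term alone. Called member probe sets numbered 1 with one median and 1 after quantile normalisation with 1 probe set per gene (Klf12 in both), and 0 to 0 over the leave-outs. Called list probe sets numbered 2 after quantile normalisation, 2 with one median, 2 with the mean of probe sets and 3 with quantile normalisation and 1 probe set per gene. The cause was not tested.

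Without the block no sign changed, since both fits give the same mean difference. The pairing by number rests on 2 pairs. Klf4 was −0.016 after quantile normalisation (also with 1 probe set per gene), −0.0017 with one median and −0.092 with the mean of probe sets. That mean also turned Klf6 (0.027), Klf13 (−0.029), Sp4 (0.22), Smad2 (0.062), Smad7 (−0.083) and Bcl2l1 (−0.016). With Nrp1-negative array 1 counted as positive, the fit with the block rests on number 2 and gave Klf4 −0.25, Klf13 −0.0067 and Klf11 0.14. With the group term alone it gave Klf6 0.17, Klf7 0.51, Klf12 −0.016, Klf11 0.16, Sp1 −0.12, Mapk7 0.25, Cd69 0.089, Ctbp2 −0.44, Sin3a −0.049, Ep300 0.21, Tgfbr1 −0.12, Arntl −0.076 and Cry1 −0.019.

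Leaving out 1 array gave 0 to 3 array-wide calls, in fits that mix the scaling batch with the group. Leaving out a replicate number leaves 1 array per group, so it gave differences and no test. Over both kinds of leave-out, differences ranged from 0.26 to 0.63 for Klf9 and 0.78 to 2.40 for Klf12, which kept their sign. They ranged from −0.089 to 0.52 for Klf2, −0.16 to 0.43 for Klf3, −0.32 to 0.36 for Klf4, −0.54 to 0.40 for Klf6, −0.80 to 0.24 for Klf7, −0.37 to 0.20 for Klf10 and −0.53 to 0.59 for Klf13. Among list genes they ranged from −2.08 to 0.48 for Klf1, −0.26 to 0.14 for Klf11, −0.21 to 0.28 for Klf16, −0.052 to 0.60 for Sp6, −0.63 to 0.26 for Sp4, −0.0087 to 0.32 for Sp1, −0.53 to 0.078 for Mapk7, −0.54 to 0.031 for Cd69 and −0.76 to 0.34 for Ccr9. They ranged from −0.26 to 1.11 for Ctbp2, −0.28 to 0.11 for Ep300, −0.017 to 0.16 for Kat2b, −0.031 to 0.12 for Crebbp, −0.28 to 0.098 for Smad2, −0.25 to 0.38 for Smad7, −0.77 to 0.028 for Ccnd1, −1.33 to 0.56 for Ccl5, −0.076 to 0.30 for Bcl2l1 and −0.12 to 0.34 for Eng. Dim signal limits the Klf12 probe sets and those of Klf9 near the filter.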
